A study of Mus musculus with 6 samples.

Results

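Iron and heme handling was described by 10 genes of the 55421 gene identifiers counted in splenic monocytes of IL-4Rα+/+ and IL-4Rα-/- mice. The genes were chosen by name for their known roles, at a time when earlier results of these data were known, and all 10 had enough reads to be tested. They are *Fth1* and *Ftl1* for iron storage, *Hmox1*, *Blvra* and *Blvrb* for heme breakdown, *Slc40a1* for iron export, *Tfrc* and *Hfe* for iron uptake and its control, and *Slc11a1* and *Slc11a2* for iron transport out of phagosomes and endosomes. The comparison asked how these transcripts differ when the alpha chain of the interleukin-4 receptor is absent.

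All 6 mice were of the C57BL/6 strain, with 3 of each genotype and 1 library per mouse. The IL-4Rα-/- line is a full knockout, so the receptor was missing from the whole animal and not from monocytes alone. The methods place all animals of the study in a single range of young adult age, while the age of each mouse, its sex and any treatment are not given in the sources used here. Monocytes were enriched from the spleen by negative selection with magnetic beads, which leaves the target cells untouched and can leave other cells among them.

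Macrophages of the splenic red pulp engulf aged red blood cells and are the main site of iron recycling in the body. Heme oxygenase opens the heme ring to biliverdin, carbon monoxide and iron, and biliverdin reductases turn biliverdin into bilirubin. The freed iron is stored in ferritin or leaves the cell through ferroportin, and monocytes share much of this machinery at other levels. When iron is scarce, iron regulatory proteins bind hairpins in mRNA called iron-responsive elements, which blocks translation of ferritin and ferroportin and protects the transferrin receptor mRNA from decay.

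Since hairpins of this kind let iron control an mRNA after transcription, matches to a fixed pattern are shown here first. Annotated protein-coding transcripts of the 10 genes were searched on their sense strand for a C, then 5 bases, then the loop CAGTGN, then 5 bases able to pair with the first 5 (G with T pairs allowed). Of the 10 genes, 4 held such a hairpin, with 7 hairpins in all. Among the reference transcripts of 21899 protein-coding genes, 1.18% held at least 1. In the lines below the loop is in capitals, and the DNA letters of the Gencode M21 transcripts on GRCm38 are given 5′ to 3′.
Fth1, 5′ UTR, plus strand, chr19:9982732-9982760: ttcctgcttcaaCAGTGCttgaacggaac
Ftl1, 5′ UTR, minus strand, chr7:45459779-45459807: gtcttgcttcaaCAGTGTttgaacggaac
Slc40a1, 5′ UTR, minus strand, chr1:45925465-45925493: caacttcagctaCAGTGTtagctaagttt
Tfrc, 3′ UTR, plus strand, first of the hairpins, chr16:32631219-32631247: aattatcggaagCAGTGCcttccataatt
Tfrc, 3′ UTR, plus strand, last of the hairpins, chr16:32631710-32631738: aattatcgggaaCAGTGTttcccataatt

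The hairpins of *Fth1*, *Ftl1* and *Slc40a1* lay before the coding sequence, where binding blocks translation. *Tfrc* held 4, all after the coding sequence, where binding stabilizes the mRNA. No match was found in the other 6 genes, *Slc11a2* among them. This says only that these letters and pairs were not in the annotated transcripts. Hairpins with another loop or with unpaired bases in the stem would be missed. RNA counts can register the stabilizing kind of control but not the translational kind.

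The libraries held 26807281 to 29033297 counts on genes, so that counting error was small for all 10 genes, whose counts ranged from 302 to 65670 per library. Values are CPM, which scales counts to a common library total after TMM normalization, and TPM where genes are compared with each other, since TPM also divides by transcript length. *Il4ra*, the targeted gene, had 137, 128 and 177 CPM in IL-4Rα+/+ replicates 1, 2 and 3, and 27.9, 79.4 and 31.8 CPM in IL-4Rα-/- replicates 1, 2 and 3. It was lower in each IL-4Rα-/- library, and replicate 2 kept the most. Which exons the knockout lacks is not given in the sources used here, so reads outside them may remain. The monocyte genes *Csf1r*, the receptor for colony stimulating factor 1, and *Lyz2*, lysozyme, were high in every library, at 2225 to 3092 and 8839 to 17012 CPM. This fits the cell label but does not tell monocytes from macrophages or show how pure the cells were.

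Genotypes were compared across 13849 genes by the quasi-likelihood test of edgeR, with p-values adjusted by the Benjamini-Hochberg method and called at the study's threshold of 0.15. None of the 10 genes passed (0 of 10), as 0% of all genes tested did, and the smallest adjusted p over all genes was 0.618. *Il4ra* itself did not pass with edgeR, at -1.67 on the log2 scale (standard error 0.41, unadjusted p 0.00529, adjusted p 0.618). DESeq2 gave *Il4ra* an adjusted p of 0.0115. A gene that did not pass was thus not shown to be unchanged. DESeq2 called 1 of the 10, *Blvra*, against 0.539% of the 14472 genes to which it gave an adjusted p, and limma voom called 0. At an unadjusted p under 0.05, DESeq2 had 6 of the 10 higher, against 2.36% of 25728 genes. These included genes with too few reads for the edgeR filter, so this share is not like those of edgeR. With edgeR, 6 of the 10 genes were higher in IL-4Rα-/- monocytes at an unadjusted p under 0.05, where 3.72% of all genes were higher and 8.09% passed in either direction. None of them was lower at that level (0 genes, against 4.37% of all genes). These 6 were both ferritin genes, *Hmox1*, both biliverdin reductases and *Slc40a1*. The 5 of them other than *Hmox1* had no overlap between the genotypes, where 7.63% of all genes were higher without overlap. None of the 10 was lower without overlap (0 genes, against 7.87% of all genes), and 7 had a log2 fold change above 0, as 51.5% of all genes did. The 6 genes became 2 without IL-4Rα+/+ replicate 2, 3 without IL-4Rα-/- replicate 1, and 4 with the trend of counts with transcript length removed. The median log2 fold change of the 10 genes was 0.29, against 0.01 over all genes tested. Because these genes share cells and libraries, they are not independent of each other.

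**Figure D1:**
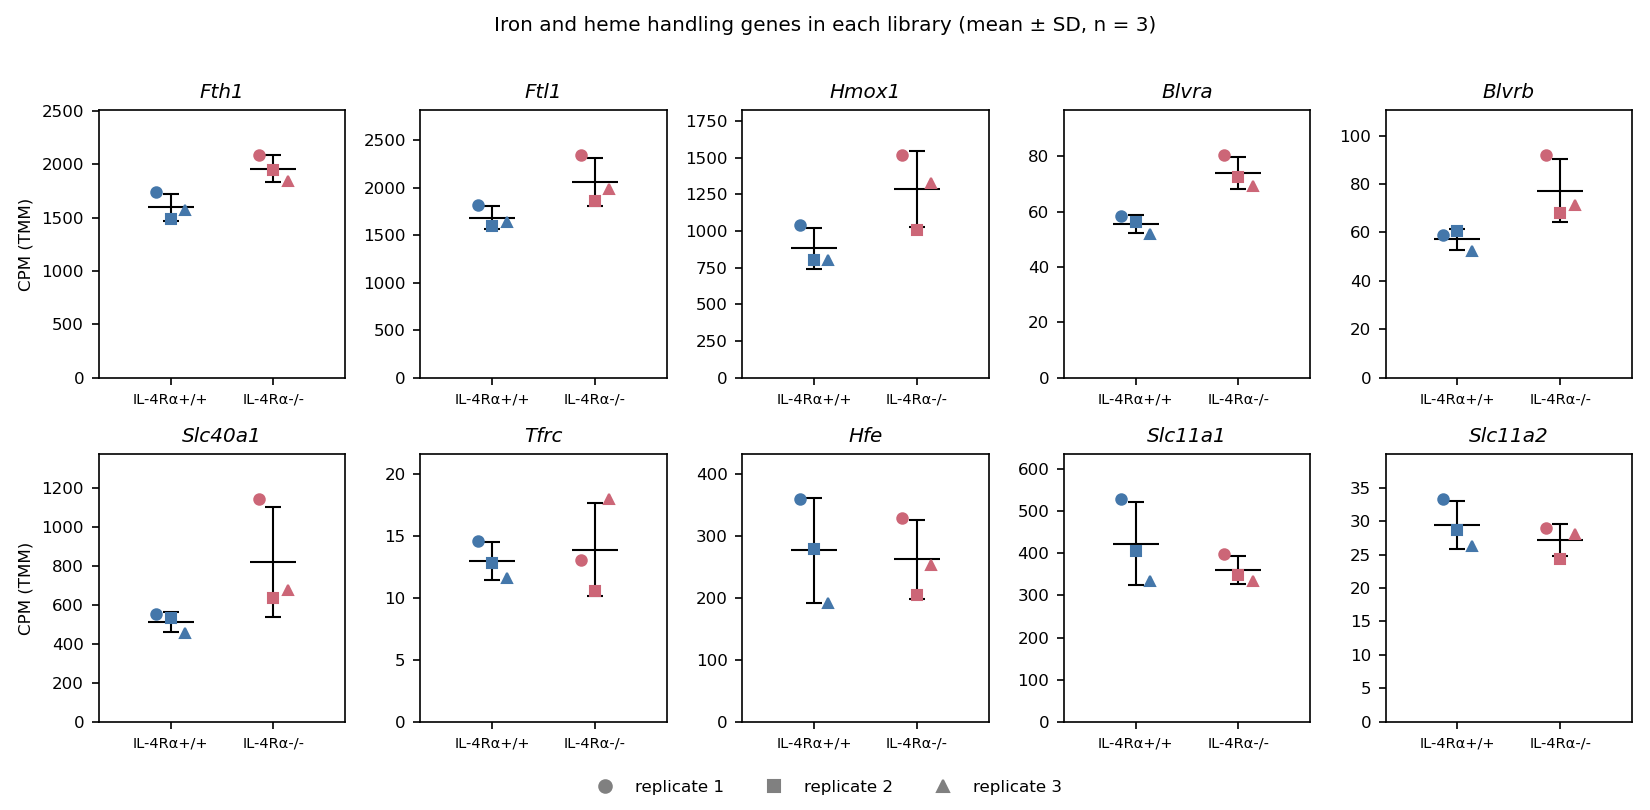
CPM of each of the 10 genes (y axis, from 0, with its own scale per panel) in the 3 IL-4Rα+/+ libraries (blue) and the 3 IL-4Rα-/- libraries (red), with symbols for the replicates and bars for mean ± SD. For *Fth1*, *Ftl1*, *Blvra*, *Blvrb* and *Slc40a1* each red point is above each blue point, while the groups overlap for *Hmox1*, *Tfrc*, *Hfe*, *Slc11a1* and *Slc11a2*.

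Ferritin, a shell of heavy and light subunits that holds iron, was by far the most abundant of these products. *Fth1* (ENSMUSG00000024661.7, chromosome 19 from 9980598 to 9985098, plus strand) encodes the heavy subunit, which oxidizes iron for storage. It had 1737, 1486 and 1573 CPM in IL-4Rα+/+ replicates 1, 2 and 3 and 2088, 1948 and 1845 CPM in IL-4Rα-/- replicates 1, 2 and 3. The lowest IL-4Rα-/- library was above the highest IL-4Rα+/+ library. The means were 1599 ± 127 and 1960 ± 122 CPM (SD, n = 3 each), or 0.29 on the log2 scale (standard error 0.09), with an unadjusted p of 0.0158 and an adjusted p of 0.618 from edgeR.

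*Ftl1* (ENSMUSG00000050708.16, chromosome 7 from 45457944 to 45459884, minus strand) encodes the light subunit, which helps to build the iron core. Its levels were 1818, 1594 and 1635 CPM in IL-4Rα+/+ and 2343, 1860 and 1983 CPM in IL-4Rα-/- replicates 1, 2 and 3. The groups did not overlap, though IL-4Rα-/- replicate 2 was only slightly above IL-4Rα+/+ replicate 1. On the log2 scale the difference was 0.29 (standard error 0.11), where edgeR gave an unadjusted p of 0.0344 and an adjusted p of 0.618. It was 0.19 without IL-4Rα-/- replicate 1. With the trend of counts with transcript length removed from each library, the log2 fold change of both ferritin genes was 0.21, and the unadjusted p was 0.0523 for *Fth1* and 0.107 for *Ftl1*.

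The 2 subunits kept nearly the same proportion. The log2 ratio of *Fth1* to *Ftl1* counts was -0.07 ± 0.02 in IL-4Rα+/+ and -0.07 ± 0.12 in IL-4Rα-/- monocytes (SD, n = 3 each, two-sided exact permutation test over 20 labelings, p = 1). Together they took 0.351, 0.307 and 0.317% of all counts on genes in IL-4Rα+/+ and 0.450, 0.375 and 0.393% in IL-4Rα-/- replicates 1, 2 and 3. The share was thus higher in each IL-4Rα-/- library, by 0.0812 percentage points on average, and the exact permutation p was 0.10, which is the lowest value that 3 mice against 3 can give. Ferritin has many near-identical processed copies in the genome, and 5 annotated ones were counted here, of which only *Fth-ps2* was tested. It had 7 to 19 counts per library, and each of the other 4 had at most 13. Gene counts from STAR leave out reads that match several places equally well, so the ferritin levels are uncertain by the reads shared with such copies. A short gene of unknown kind, *Gm10252*, lies within *Ftl1* on the other strand and had 14 to 30 counts per library.

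Heme breakdown starts with *Hmox1* (ENSMUSG00000005413.8, chromosome 8 from 75093621 to 75100589, plus strand), the inducible heme oxygenase. It had 1041, 800 and 803 CPM in IL-4Rα+/+ replicates 1, 2 and 3 and 1518, 1009 and 1329 CPM in IL-4Rα-/- replicates 1, 2 and 3. Only IL-4Rα-/- replicate 2 and IL-4Rα+/+ replicate 1 overlapped. The means were 881 ± 138 and 1286 ± 257 CPM (SD, n = 3 each), or 0.54 on the log2 scale (standard error 0.18), with an unadjusted p of 0.0195 and an adjusted p of 0.618 from edgeR. Its constitutive partner *Hmox2* was much lower, at 95.7 to 107 CPM in IL-4Rα+/+ and 103 to 123 CPM in IL-4Rα-/- libraries, with overlap.

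*Blvra* (ENSMUSG00000001999.15, chromosome 2 from 127070665 to 127097084, plus strand) encodes the reductase for the biliverdin that heme oxygenase forms, and of the 10 genes it had the smallest unadjusted p. Its levels were 58.4, 56.3 and 51.9 CPM in IL-4Rα+/+ and 80.5, 72.4 and 69.3 CPM in IL-4Rα-/- replicates 1, 2 and 3. All IL-4Rα-/- libraries were well above all IL-4Rα+/+ libraries. This amounted to 0.42 on the log2 scale (standard error 0.09), and edgeR gave an unadjusted p of 0.00232, which ranked 28 among all genes, and an adjusted p of 0.618. DESeq2 gave an adjusted p of 0.101, and over all alternatives with 6 libraries the adjusted p lay between 0.101 and 0.823.

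*Blvrb* (ENSMUSG00000040466.16, chromosome 7 from 27447978 to 27466144, plus strand) encodes a reductase with other substrates, flavins among them, that is abundant in red blood cells. It had 59.0, 60.4 and 52.2 CPM in IL-4Rα+/+ replicates 1, 2 and 3, close to *Blvra*, and 92.0, 68.0 and 71.4 CPM in IL-4Rα-/- replicates 1, 2 and 3. The groups were apart, with IL-4Rα-/- replicate 1 the highest. The difference was 0.43 on the log2 scale (standard error 0.13), for which edgeR gave an unadjusted p of 0.0148 and an adjusted p of 0.618. It was 0.28 without IL-4Rα-/- replicate 1.

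*Slc40a1* (ENSMUSG00000025993.10, chromosome 1 from 45908068 to 45926523, minus strand) encodes ferroportin, the only known iron exporter of mammals. With all 6 libraries it had the largest log2 fold change of the 10 genes. Its levels were 551, 531 and 453 CPM in IL-4Rα+/+ and 1142, 636 and 678 CPM in IL-4Rα-/- replicates 1, 2 and 3. The groups did not overlap, and IL-4Rα-/- replicate 1 stood far above the rest. The means were 511 ± 51.7 and 819 ± 281 CPM (SD, n = 3 each), which is 1.60-fold. Its log2 fold change was 0.68 (standard error 0.23), and edgeR gave an unadjusted p of 0.0238 and an adjusted p of 0.618. Without IL-4Rα-/- replicate 1 the log2 fold change was 0.36, below the 0.40 of *Hmox1*.

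**Figure D2:**
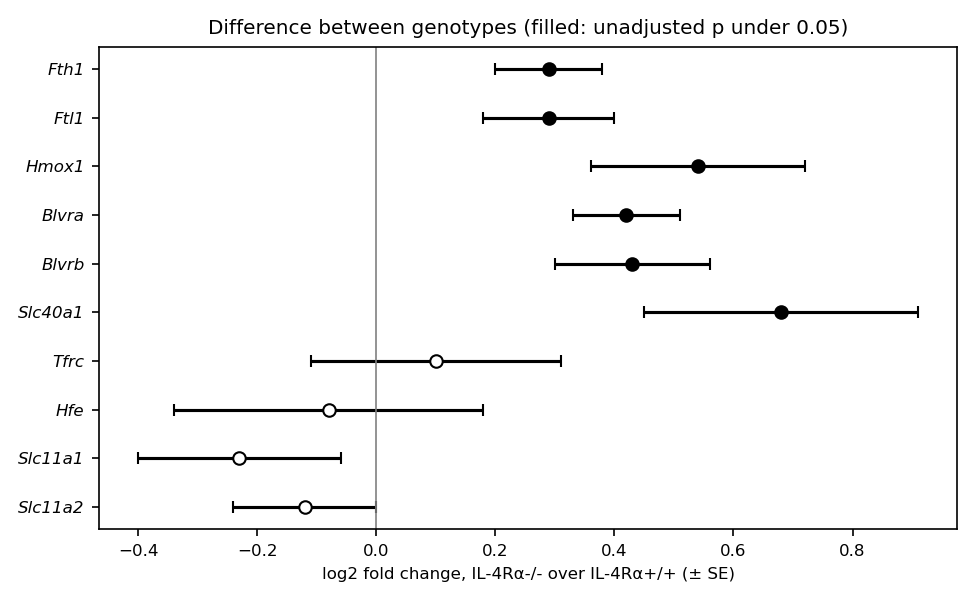
Log2 fold change of IL-4Rα-/- over IL-4Rα+/+ monocytes for each of the 10 genes (x axis, ± standard error from edgeR), with filled points where the unadjusted p was under 0.05. The 6 filled points lie between 0.29 and 0.68, and the 4 open points between -0.23 and 0.10.

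Genes for uptake and endosomal transport lay on both sides of 0. *Tfrc* (ENSMUSG00000022797.16, chromosome 16 from 32608920 to 32632794, plus strand) encodes the transferrin receptor, the port of entry for iron bound to transferrin. It was the lowest of the 10 genes, at 14.6, 12.8 and 11.6 CPM in IL-4Rα+/+ and 13.1, 10.6 and 18.0 CPM in IL-4Rα-/- replicates 1, 2 and 3. The groups overlapped, and IL-4Rα-/- replicate 3 was the highest of all. Its log2 fold change was 0.10 (standard error 0.21), the unadjusted p from edgeR was 0.664, and the value was -0.13 without IL-4Rα-/- replicate 3.

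*Hfe* (ENSMUSG00000006611.15, chromosome 13 from 23702034 to 23710854, minus strand) encodes a protein that binds the transferrin receptor and takes part in iron sensing. It had 359, 279 and 191 CPM in IL-4Rα+/+ and 329, 204 and 252 CPM in IL-4Rα-/- replicates 1, 2 and 3. The spread within each genotype was far larger than the difference between them, which was -0.08 on the log2 scale (standard error 0.26, unadjusted p from edgeR 0.770). Its direction turned to 0.15 without IL-4Rα+/+ replicate 1 and to 0.07 without IL-4Rα-/- replicate 2.

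*Slc11a1* (ENSMUSG00000026177.11, chromosome 1 from 74375195 to 74386062, plus strand) encodes a metal transporter of the phagosome membrane, known for its part in resistance to intracellular bacteria. It had 529, 405 and 335 CPM in IL-4Rα+/+ and 399, 349 and 335 CPM in IL-4Rα-/- replicates 1, 2 and 3. The IL-4Rα-/- values lay within the IL-4Rα+/+ range or at its lower end. The difference was -0.23 on the log2 scale (standard error 0.17, unadjusted p from edgeR 0.225), and it was -0.04 without IL-4Rα+/+ replicate 1 and -0.37 without IL-4Rα+/+ replicate 3. *Slc11a2* (ENSMUSG00000023030.16, chromosome 15 from 100387898 to 100425072, minus strand) encodes the related transporter that carries iron out of endosomes. Its levels were 33.3, 28.7 and 26.3 CPM in IL-4Rα+/+ and 29.0, 24.4 and 28.0 CPM in IL-4Rα-/- replicates 1, 2 and 3, with overlap. It differed by -0.12 on the log2 scale (standard error 0.12, unadjusted p from edgeR 0.352), and by -0.02 without IL-4Rα+/+ replicate 1. The adjusted p of these 4 genes lay between 0.704 and 0.928 with edgeR.

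Within a library, uptake was set against storage and export by ratios that need no scaling. The log2 ratio of *Tfrc* to *Fth1* plus *Ftl1* counts was -7.98 ± 0.11 in IL-4Rα+/+ and -8.21 ± 0.42 in IL-4Rα-/- monocytes (SD, n = 3 each). It was -8.40, -8.49 and -7.73 in IL-4Rα-/- replicates 1, 2 and 3, which put replicate 3 above all IL-4Rα+/+ libraries and the other two below them (two-sided exact permutation test, p = 0.4). The log2 ratio of *Slc40a1* to *Tfrc* counts was 5.30 ± 0.07 in IL-4Rα+/+ and 5.86 ± 0.61 in IL-4Rα-/- monocytes (SD, n = 3 each). Its IL-4Rα-/- values were 6.45, 5.91 and 5.23, with replicate 3 apart again, just below the IL-4Rα+/+ libraries, and the other two above them (two-sided exact permutation test, p = 0.4). The IL-4Rα+/+ mice were close to each other in both ratios, and the IL-4Rα-/- mice were not.

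Per transcript length, the order of the genes was almost the same in both genotypes. In IL-4Rα+/+ monocytes *Ftl1* and *Fth1* led at 3864 ± 267 and 3826 ± 290 TPM (SD, n = 3 each) with overlapping ranges, which placed them at ranks 11 and 12 of all genes over the 6 libraries. *Hmox1* followed at 1249 ± 195 TPM. *Slc11a1* and *Slc40a1*, at 407 ± 95.0 and 338 ± 36.9 TPM, overlapped each other, as did *Hfe* with *Blvrb* and *Blvrb* with *Blvra*, at 172 ± 52.8, 124 ± 10.8 and 107 ± 7.12 TPM. *Slc11a2* at 21.7 ± 2.68 TPM and *Tfrc* at 5.91 ± 0.699 TPM came last and were apart from their neighbors. In IL-4Rα-/- monocytes *Slc40a1* stood above *Slc11a1*, at 531 ± 187 and 340 ± 34.2 TPM, without overlap, and *Blvrb* and *Hfe* exchanged places with overlap.

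The 6 genes that were higher in IL-4Rα-/- monocytes peaked in the same mouse. All 6 were highest in IL-4Rα-/- replicate 1, and their lowest values were in IL-4Rα+/+ replicate 2 for 3 genes and replicate 3 for the other 3. *Tfrc* was the only one of the 10 with its highest value in IL-4Rα-/- replicate 3, and *Hfe*, *Slc11a1* and *Slc11a2* were highest in IL-4Rα+/+ replicate 1. The summed level of 12 red pulp macrophage markers was 3195, 3053 and 2826 CPM in IL-4Rα+/+ and 5644, 3964 and 3321 CPM in IL-4Rα-/- replicates 1, 2 and 3, so it too was highest in IL-4Rα-/- replicate 1 and higher in every IL-4Rα-/- library. Of these 12 markers, 11 had a positive log2 fold change, against 51.5% of all genes, and 5 were higher without overlap, against 7.63%. Their median log2 fold change was 0.62, and none was at 3 counts or fewer in all libraries. *Siglec1* went the other way, at -0.32 on the log2 scale. *Adgre1* and *Hpgd* overlapped between the genotypes, at 0.19 and 0.21, and so did *Vcam1*, *Cd163*, *Cd5l* and *Mertk*. The 5 without overlap were *Spic*, *Axl*, *C1qa*, *C1qb* and *C1qc*. *Vcam1*, an adhesion molecule, had 555 to 634 CPM in IL-4Rα+/+ and 633 to 1352 CPM in IL-4Rα-/- libraries. *Spic*, the transcription factor that red pulp macrophages need, had 90.8 to 103 and 106 to 164 CPM. The summed level of 17 erythroid markers was 70.5, 134 and 112 CPM in IL-4Rα+/+ replicates 1, 2 and 3. In IL-4Rα-/- replicates 1, 2 and 3 it was 189, 193 and 457 CPM, highest in replicate 3 as *Tfrc* was. All 16 erythroid markers tested had a positive log2 fold change, and 13 were higher without overlap, with a median of 1.43. The part of red pulp macrophages and erythroid cells in the results was not tested. In RNA from a mixed preparation, more cells of a type and more RNA per cell cannot be told apart.

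**Figure D3:**
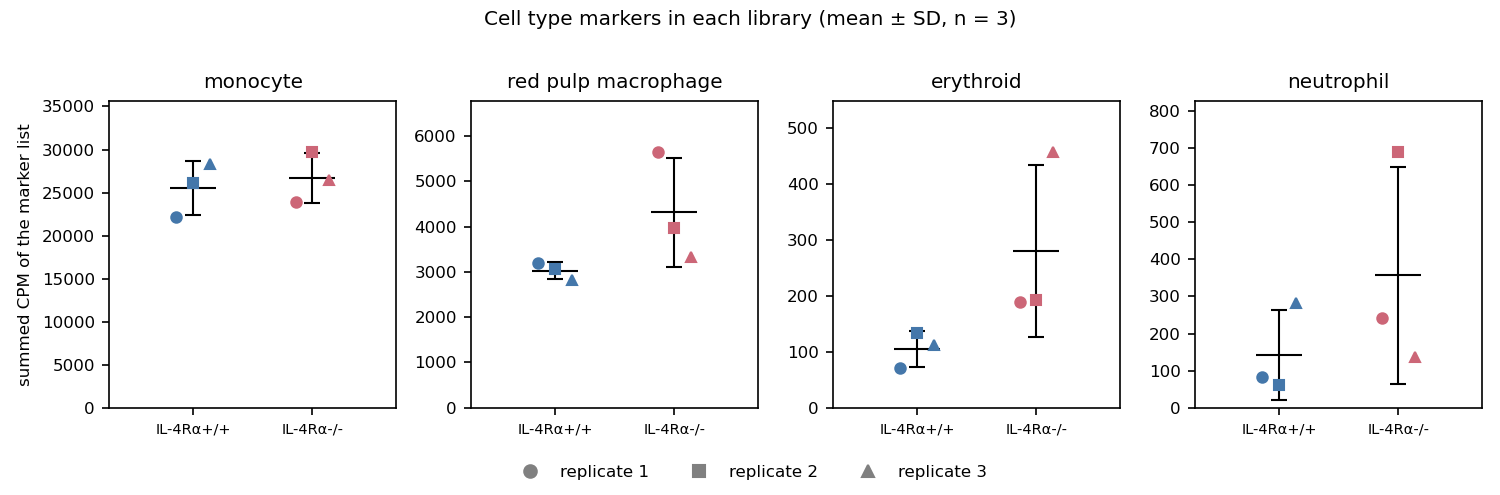
Summed CPM (y axis, from 0, with its own scale per panel) of the monocyte, red pulp macrophage, erythroid and neutrophil marker lists in each library, with symbols for the replicates and bars for mean ± SD of the 3 mice. The red pulp macrophage sum is 2826 to 3195 CPM in IL-4Rα+/+ and 3321 to 5644 CPM in IL-4Rα-/- libraries, while the monocyte sums overlap.

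The 16 monocyte markers summed to 22109 to 28367 CPM in IL-4Rα+/+ and 23884 to 29713 CPM in IL-4Rα-/- libraries, with a median log2 fold change of -0.09. The sum of 13 neutrophil markers was 83.9, 62.7 and 282 CPM in IL-4Rα+/+ and 243, 689 and 138 CPM in IL-4Rα-/- replicates 1, 2 and 3. These groups overlapped, but the mean was 2.50-fold higher in IL-4Rα-/- libraries. Of the 12 neutrophil markers tested, 11 had a positive log2 fold change, against 51.5% of all genes, and their median was 1.21. *Retnlg* went the other way, at -0.31. *Mmp8* alone gave 170 CPM of the sum in IL-4Rα+/+ replicate 3 and 304 CPM in IL-4Rα-/- replicate 2. *Ly6g* had 0 to 9 counts per library and was not tested. The part of neutrophils in the results was not tested. The T and NK cell, dendritic cell, and megakaryocyte and platelet sums also overlapped, with medians of -0.06, -0.12 and 0.68. The sum of 12 eosinophil, basophil and mast cell markers was 87.6 to 97.7 CPM in IL-4Rα+/+ and 141 to 225 CPM in IL-4Rα-/- libraries, and the sum of 9 B and plasma cell markers was 494 to 548 and 570 to 755 CPM.

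To place the 10 genes in their pathway, 82 further genes of iron and heme metabolism were listed by function, of which 68 were tested. None passed edgeR's adjusted threshold (0 genes, and 7 at an unadjusted p under 0.05, with 5 higher and 2 lower). Of all genes tested, 3.72% were higher and 4.37% lower at that level. DESeq2 called 1 of these genes, *Gclm*. It had 9 of 78 at an unadjusted p under 0.05 in either direction, against 4.70% of 25728 genes, low-count genes among them. By limma voom 0 were called and 6 of 68 had an unadjusted p under 0.05, against 8.07% of all genes.

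The transcription factors and responsive genes around heme and oxidative stress gave both the smallest p and opposite signs. *Gclm*, a subunit of the enzyme that starts glutathione synthesis and a target of the activator NRF2, had 30.6, 29.6 and 28.7 CPM in IL-4Rα+/+ and 38.3, 41.1 and 46.7 CPM in IL-4Rα-/- replicates 1, 2 and 3. Its groups did not overlap, and the difference was 0.50 on the log2 scale (standard error 0.09, unadjusted p from edgeR 0.00111). *Bach1*, the repressor of *Hmox1* and ferritin genes that heme inactivates, had 351, 385 and 349 CPM in IL-4Rα+/+ and 306, 301 and 298 CPM in IL-4Rα-/- replicates 1, 2 and 3. It was lower in each IL-4Rα-/- library, by -0.26 on the log2 scale (standard error 0.07, unadjusted p from edgeR 0.00915). Both had an adjusted p of 0.618 with edgeR. *Nfe2l2*, which encodes NRF2, was at -0.08 on the log2 scale (standard error 0.13), with overlap. Of the 16 genes in this list, 10 had a positive log2 fold change, against 51.5% of all genes, and the median was 0.13.

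In heme synthesis 3 of 11 genes were higher at an unadjusted p under 0.05 and none was lower (0 genes). Of all genes tested, 3.72% were higher and 4.37% lower at that level. *Alas2*, the first enzyme of the pathway in erythroid cells, had 52, 187 and 136 counts in IL-4Rα+/+ and 216, 220 and 592 counts in IL-4Rα-/- replicates 1, 2 and 3, with its peak in the library with the highest erythroid sum. It is itself on the erythroid list. *Alad*, the next enzyme, had a log2 fold change of 0.52 (standard error 0.21), without overlap. *Alas1*, the first enzyme outside erythroid cells, overlapped between the genotypes at 0.17 (standard error 0.19). *Fech*, which inserts the iron, was at -0.03 (standard error 0.07). *Tmem14c*, a mitochondrial porphyrin transporter, had the highest level of the list, at 147 ± 16.8 and 176 ± 31.9 CPM (SD, n = 3 each). The median of the list was 0.18.

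Among heme uptake and transport genes, *Lrp1*, the receptor for hemopexin with bound heme and for many other ligands, was the highest. It had 1865, 2111 and 2248 CPM in IL-4Rα+/+ and 1623, 1708 and 1486 CPM in IL-4Rα-/- replicates 1, 2 and 3, without overlap. It differed by -0.37 on the log2 scale (standard error 0.10), and edgeR gave an unadjusted p of 0.00837 and an adjusted p of 0.618. *Cd163*, the receptor for hemoglobin bound to haptoglobin and also a red pulp macrophage marker, had 44.2 to 91.5 and 64.3 to 172 CPM, with overlap. *Slc48a1*, which moves heme out of the phagolysosome, had 110 to 132 and 122 to 188 CPM, with overlap and with its peak in IL-4Rα-/- replicate 1. The median of the 10 genes tested was 0.26.

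The iron regulatory proteins *Aco1* and *Ireb2* had log2 fold changes of -0.00 (standard error 0.11) and -0.02 (standard error 0.10), and *Pcbp2*, an iron chaperone and the highest of its list, had 0.01 (standard error 0.07). *Fbxl5*, the iron-sensing ligase subunit that marks IREB2 for degradation, was at 0.26 (standard error 0.27), with 128 to 173 CPM in IL-4Rα+/+ libraries and 138, 253 and 134 CPM in IL-4Rα-/- replicates 1, 2 and 3. None of the 6 genes in this list had an unadjusted p under 0.05 (0 genes, against 8.09% of all genes). *Trf*, which encodes transferrin, led the list of other iron transporters at 571 ± 58.5 CPM in IL-4Rα+/+ and 756 ± 161 CPM in IL-4Rα-/- monocytes (SD, n = 3 each). Its log2 fold change was 0.40 (standard error 0.17) with an unadjusted p of 0.0494, and its groups overlapped. Of the 22 genes in that list 11 were tested, and 8 were at 3 counts or fewer in every library, the hepcidin homolog *Hamp2* among them. Iron-sulfur cluster assembly had 14 genes tested, none with an unadjusted p under 0.05 (0 genes, against 8.09% of all genes), and a median of 0.08. *Hspa9*, its chaperone with the highest level, was at 0.11 on the log2 scale (standard error 0.09).

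**Figure D4:**
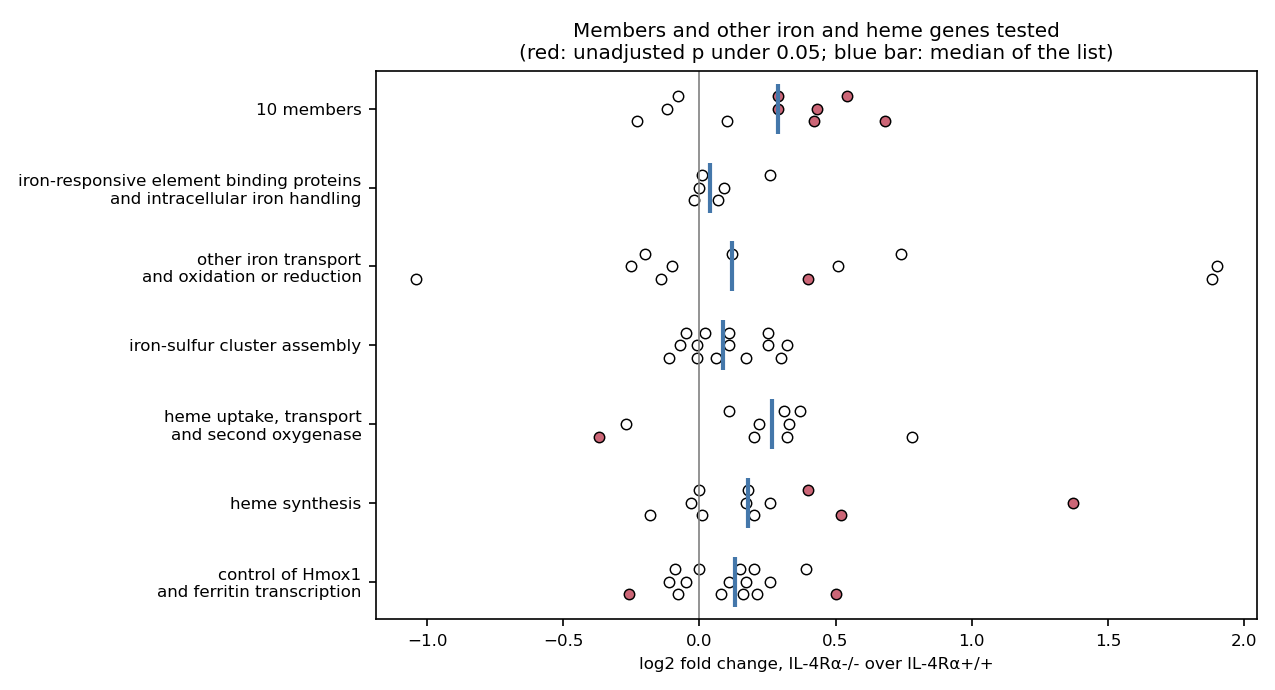
Log2 fold change of IL-4Rα-/- over IL-4Rα+/+ monocytes (x axis) for the 10 genes and for each tested gene of 6 lists of iron and heme metabolism (rows), with red points where the unadjusted p was under 0.05 and blue bars for the median of each row. The median is 0.29 for the 10 genes and 0.04 to 0.26 for the lists.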

How the data were processed

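Polyadenylated RNA of splenic monocytes was sequenced for 6 mice, 3 per genotype, from directional libraries as single-end reads. The authors aligned the reads to GRCm38 with Gencode mV23 annotations by STAR 2.6.1a in 2-pass mode and deposited raw counts per gene, without normalization. Which strand column was kept is not given in the sources used here. Lines for reads not assigned to a gene, 21.1 to 22.8% of each library, were left out.

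Symbols, positions and lengths came from Gencode M21, which matched 55240 of 55421 identifiers. Length was that of 1 reference transcript per gene. Genes were filtered by filterByExpr (minimum count 10), scaled by TMM and tested with edgeR 4.0.16 in R 4.3.3, with standard errors from the same test. DESeq2 1.42.0 and limma 3.58.1 were alternatives. Libraries were grouped by the labelled genotype. The p-values measure the spread between these mice. Same-numbered libraries did not pair (correlations of their deviations of 0.257, -0.303 and -0.388), so no block was used.

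The genes and lists were chosen with earlier results of these data known. Besides the 10 genes and *Il4ra*, the genes named were ferritin copies that were tested, list genes with an unadjusted p under 0.05 and the highest gene of each list, except 1 gene that is not reported here. Others were named after their values were seen. Steps were tested on simulated data with planted changes larger than those of the 10 genes. That test does not show how well changes as small as theirs are found.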

Additional observations from a re-analysis of the deposited data

How the results depend on the processing

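No gene was called by edgeR or limma voom under the alternatives tried (0 genes, with 627 to 1724 at an unadjusted p under 0.05), which were other scalings, no filter, a replicate block, an *Xist* covariate, removal of the length trend, added pseudogene counts, a threshold of 0.05 and leaving out each mouse. DESeq2 called 78 genes and 1 of the 10, *Blvra* (log2 fold change 0.42, adjusted p = 0.101). The cause was not tested. The number of the 10 genes at an unadjusted p under 0.05 was 6, and it was 2 to 6 when 1 mouse was left out, with 2 without IL-4Rα+/+ replicate 2 and 3 without IL-4Rα-/- replicate 1. It was 4 with the length trend removed. *Blvra* and *Blvrb* stayed under 0.05 in all 6 fits without a mouse, while *Ftl1* and *Hmox1* did so in 2. Log2 fold changes without a mouse were 0.36 to 0.83 for *Slc40a1*, -0.13 to 0.26 for *Tfrc* and -0.29 to 0.15 for *Hfe*. The difference in the log2 ratio of *Fth1* to *Ftl1*, 0.01 with all mice, was -0.06 to 0.06 without one, and -0.01 without IL-4Rα+/+ replicate 2. With the replicate block, 0 of the 10 genes were called and 6 had an unadjusted p under 0.05. Only 2 of the 6 libraries correlated best with the library of the same number, and the block changed no call. Leaving hemoglobin and immunoglobulin genes out of the total kept the ferritin share higher in IL-4Rα-/- monocytes. With 3 mice against 3, exact permutation tests cannot go below p = 0.10.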

Other observations

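*Ace* and *Spn*, genes of the patrolling, Ly6C low monocyte subset, varied widely between mice of the same genotype, and *Hfe* varied beside them. Their levels were known when they were picked for this description. *Ace*, the angiotensin converting enzyme, had 2772, 2122 and 1087 CPM in IL-4Rα+/+ and 1744, 709 and 1603 CPM in IL-4Rα-/- replicates 1, 2 and 3. *Spn*, which encodes CD43, had 1185, 849 and 401 CPM in IL-4Rα+/+ and 808, 280 and 721 CPM in IL-4Rα-/- replicates 1, 2 and 3. *Hfe* was likewise lowest in IL-4Rα+/+ replicate 3 and IL-4Rα-/- replicate 2, at 191 and 204 CPM, and highest in IL-4Rα+/+ replicate 1, at 359 CPM. This order was not particular to *Hfe*. *Slc11a2* had the same order of replicates within each genotype, over a narrower range of 24.4 to 33.3 CPM. *Slc11a1* had it in IL-4Rα+/+ only. *Ccr2*, a receptor of the classical Ly6C high subset, ran the other way, from 380 CPM in IL-4Rα+/+ replicate 1 to 1667 CPM in IL-4Rα+/+ replicate 3 and 2007 CPM in IL-4Rα-/- replicate 2. The part of subset proportions in the levels of *Hfe*, *Slc11a1* and *Slc11a2* was not tested.

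Iron-binding proteins of neutrophils varied widely between mice. *Lcn2*, a siderophore-binding protein, had 5.02, 1.37 and 20.2 CPM in IL-4Rα+/+ and 10.3, 85.0 and 3.72 CPM in IL-4Rα-/- replicates 1, 2 and 3. *Ltf*, lactoferrin, had 7.76, 1.34 and 10.7 CPM in IL-4Rα+/+ and 24.1, 42.6 and 6.05 CPM in IL-4Rα-/- replicates 1, 2 and 3. IL-4Rα-/- replicate 2 was highest for both genes, and the genotypes overlapped for both.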
